A study of Mus musculus with 6 samples.

Results

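The immediate-early families of AP-1, EGR, KLF and dual-specificity phosphatase (DUSP) genes were compared between migrating wound keratinocytes of diabetic and normal mice. Members were chosen by gene symbol: every Dusp, Klf, Egr, Ier or Atf gene with a numbered name, together with Fos, Fosb, Fosl1, Fosl2, Jun, Junb, Jund, Batf, Nr4a1, Nr4a2, Nr4a3, Maff, Mafg, Mafk, Myc, Btg2, Zfp36 and Srf, with Atf7ip and Ier3ip1 left out. This gave 76 genes, measured by 79 probe sets, of 19938 genes on the array, and for a gene with several probe sets the brightest one stood for it. The symbol rule also admits Atf7ip2, which encodes a partner of an ATF factor and not a factor itself. The diabetic group comprised 3 arrays of keratinocytes from mice made diabetic by a high fat, high fructose diet given for 16 weeks from 8 weeks of age. The normal group comprised 3 arrays from mice kept on a control diet over the same period. In both groups skin wounds were taken 3 days after wounding, and the leading keratinocytes of the ingrowing epithelium were laser-captured from fixed tissue, guided by E-cadherin staining, with the sections of a sample pooled. Strain, sex and the number of mice behind each array are not given in the labels, so the spread behind each p-value is that between these arrays and may in part be technical.

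Immediate-early genes are transcribed within minutes of a growth factor, cytokine or stress signal, without new protein synthesis. MAP kinases activate serum response factor with its ternary complex partners, and CREB-type factors, at the promoters of these genes, and the products are themselves mostly transcription factors. In the epidermis Fos and Jun proteins pair as AP-1 at genes for keratinocyte migration, proteolysis and differentiation, and KLF factors help to set the balance between basal growth and barrier formation. DUSP phosphatases and the mRNA decay protein of Zfp36 are induced by the same signals and shut them down again.

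Values are log2 probe set signals, and each difference is diabetic minus normal with limma's moderated standard error (SE). Few of the members were bright. A background limit was set on each array from 1190 chemosensory (olfactory or vomeronasal) receptor genes, as the 95th percentile of their signals. It lay between 1.98 and 2.12 on the diabetic arrays and between 2.11 and 2.12 on the normal arrays. Of the 76 members, 22 (28.9%) exceeded it on all 6 arrays and 23 (30.3%) on none, against 17.3% and 51.5% of all genes. Diabetic arrays had 43, 45 and 29 members above their limit and normal arrays 33, 37 and 34. The share of all genes past this limit was 35.2%, 36.5% and 29.1% for diabetic replicates 1, 2 and 3. For the normal replicates, in the same order, it was 27.4%, 28.4% and 28.4%. Diabetic replicates 1 and 2 had the highest shares and the lowest limits, 1.98 and 2.01. Their higher member counts are therefore not a result about the families. Probes differ in base composition, which the limit ignores and whose part in these counts was not tested. A gene under the limit has only a bound on its level and is given no fold, and a small difference in signal near background does not bound the difference in RNA. These are bulk captures, so fewer cells of a type and less RNA per cell cannot be told apart.

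The captured cells were checked against marker genes. Of 13 keratinocyte markers 4 to 6 were above the limit on the diabetic arrays and 4 or 5 on the normal arrays. Their summed signal was lower on every diabetic array, between 24.7 and 25.7 log2 units, against 25.9 to 28.2 on the normal arrays, and 9 of the 13 differences were below 0 (median -0.16). Krt15 and Krt10 exceeded it on every array, while Cdh1, the gene of the E-cadherin used to guide the capture, Krt6a, Krt16 and Krt17 exceeded it on none. All 6 macrophage markers were under the limit on all arrays. Of 7 fibroblast markers 4 or 5 exceeded the limit on the diabetic arrays and 3 or 4 on the normal arrays. Their sums lay between 15.8 and 16.8 log2 units on the diabetic arrays and between 15.5 and 16.0 on the normal arrays. Col1a1 among them was at 3.37, 4.14 and 3.88 in diabetic samples, against 3.32, 3.60 and 3.57 in normal samples. Of 5 endothelial markers 1 to 3 exceeded the limit on the diabetic arrays and 0 to 2 on the normal arrays. Neutrophil markers, 8 genes, summed to between 12.6 and 13.7 log2 units on the diabetic arrays and between 13.6 and 15.4 on the normal arrays. Skeletal muscle markers, 12 genes, summed to between 26.6 and 28.5 on the diabetic arrays and between 25.2 and 26.6 on the normal arrays. Of these 12 genes 6 or 7 exceeded the limit on the diabetic arrays and 5 on the normal arrays. The sums of 12 ribosomal protein genes lay between 42.8 and 43.8 on the diabetic arrays and between 36.3 and 38.7 on the normal arrays. This shift was not uniform, with 8 of the 12 differences above 0 and 4 below and a median of 0.12. Rpl26 (2.51) and Rpl5 (1.74) had the largest differences. The part of these shifts in the differences that follow was not tested.

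None of the 76 members, which were chosen by symbol and are not all immediate-early genes, passed the adjusted threshold. The members' smallest adjusted p was 0.780, for Dusp4, with limma and Benjamini-Hochberg adjustment over all 19938 genes, of which 0% were called. An unadjusted p under 0.05 was reached by 6 members (7.89%), against 5.56% of all genes. Higher in diabetic samples were Dusp28, Klf17 and Fosb (background 2.64%), and lower were Dusp4, Dusp27 and Ier3 (background 2.92%). None of the 6 reached a 1.5-fold difference together with that p, a criterion met by 0.256% of all genes. Groups did not overlap for 9 members (11.8%), against 10.7% of all genes, 4 with all diabetic arrays above the normal arrays (background 5.02%) and 5 with all of them below (background 5.66%). These shares lie near the background and are not a result about the families.

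**Figure D1:**
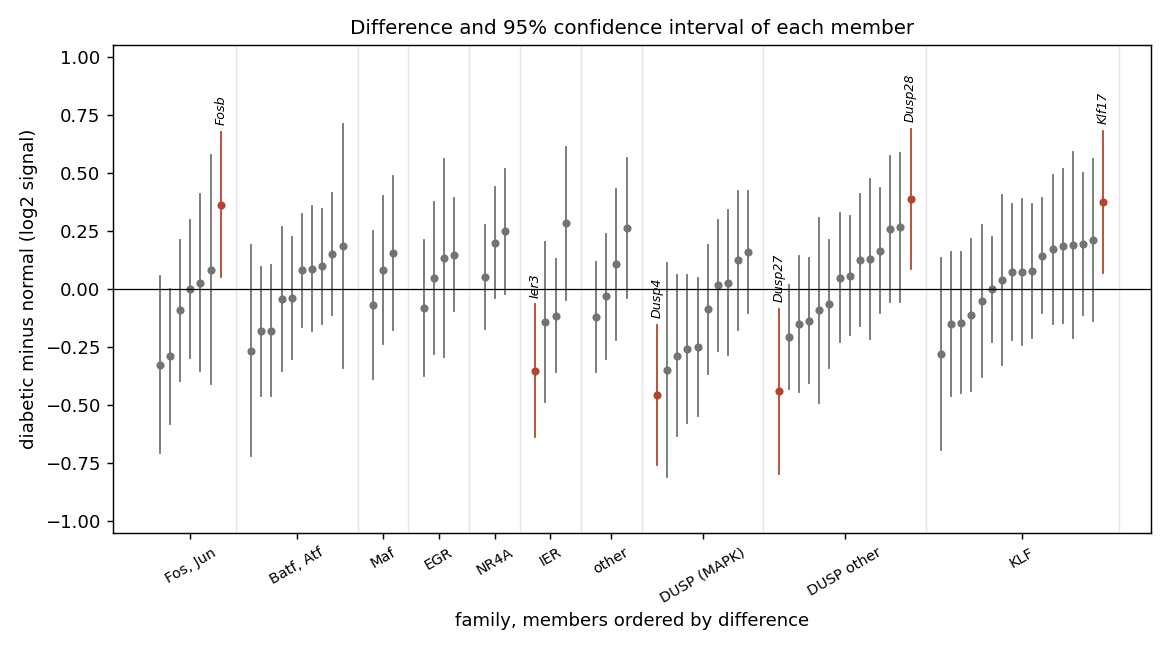
Difference in log2 signal, diabetic minus normal, for each of the 76 members (points) with limma's 95% confidence interval (lines), grouped by family and ordered by size within it; the 6 red, named members had an unadjusted p under 0.05. Every interval lies within 1 log2 unit of 0, and the differences run from -0.46 for Dusp4 to 0.39 for Dusp28.

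In direction, 42 members had a difference above 0 and 34 below it, which is 55.3% above 0, against 48.7% of all genes. Their median difference was 0.04, and that of all genes was -0.0039. Without diabetic replicate 2 the members' median was -0.016, so its sign rests on that array. The 95% confidence interval of the signal difference stayed inside 2-fold, up or down, for all 76 members and inside 1.5-fold for 61. Of all 19938 genes, 19855 and 18121 had intervals inside these bounds. The member counts include 23 members under the limit on every array and 31 under it on some. For these the interval bounds the signal and not the RNA. Of the 22 members above the limit on all arrays, 22 had intervals inside 2-fold and 17 inside 1.5-fold. Within-group spread was of like size to the members' differences, with a median SD of 0.176 over the members and 0.150 over all genes.

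**Figure D2:**
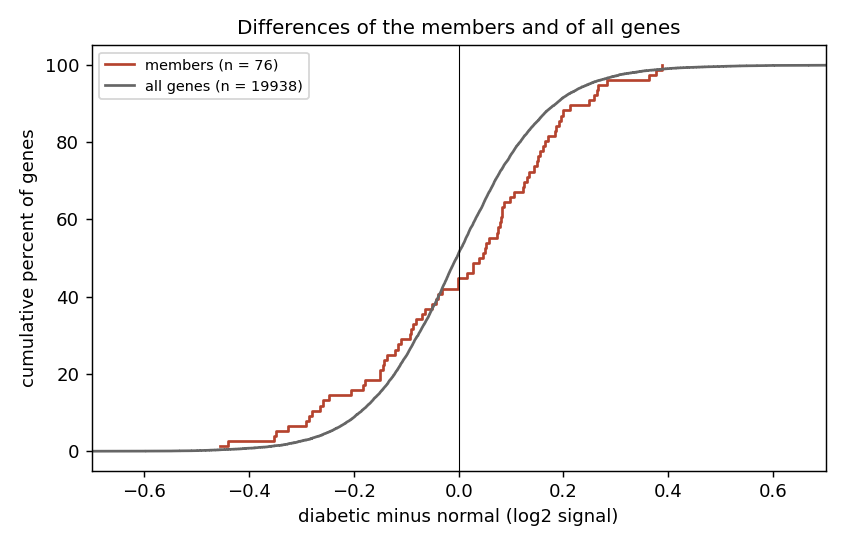
Cumulative percent of genes (vertical axis) against the difference in log2 signal, diabetic minus normal (horizontal axis), for the 76 members (red) and all 19938 genes (grey). The curves cross near 0, and the members' curve has a median of 0.04 against -0.0039 for all genes.

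Among the Fos genes, which encode the AP-1 subunits that bind DNA only with a partner, Fosb was the only one with an unadjusted p under 0.05. Its signal (probe set 10560481) was 2.63, 2.74 and 2.82 in diabetic samples, against 2.13, 2.54 and 2.43 in normal samples. All diabetic values lay above all normal values, and every array was above its limit. The difference was 0.36 (SE 0.14), a fold of 1.29, with an unadjusted p of 0.0262 and an adjusted p of 0.846 in limma. It was 0.25 without normal replicate 1, the lowest of the normal arrays, and 0.45 without normal replicate 2, and an unadjusted p under 0.05 was kept in 3 of the 6 fits with 1 array left out.

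Junb encodes a Jun subunit that restrains proliferation in the epidermis, and its difference had the opposite sign. Its values (10580282) were 2.41, 2.34 and 2.18 in diabetic samples, against 2.60, 2.46 and 2.74 in normal samples. The groups did not overlap, all diabetic arrays being lower. The difference was -0.29 (SE 0.13), with an unadjusted p just above 0.05 and an adjusted p of 0.893 in limma. Leaving out 1 array at a time gave differences between -0.36 and -0.22.

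Promoter windows of Fosb and Junb are shown because these AP-1 members had differences of opposite sign. The window of Dusp5 is shown because that gene was above the limit on all arrays and its window holds CArG boxes, the binding motif of serum response factor. Each runs from 250 bases before to 50 after the gene start, on the gene's strand, in RefSeq's table for build GRCm38.p6. Capitals mark the cyclic AMP response element (CRE) core, TGACG on either strand, and the CArG box, and overlapping matches were all marked. The Fosb window is chr7:19309996-19310295 (minus strand), the Junb window chr8:84978699-84978998 (minus strand) and the Dusp5 window chr19:53528895-53529194 (plus strand).
Fosb: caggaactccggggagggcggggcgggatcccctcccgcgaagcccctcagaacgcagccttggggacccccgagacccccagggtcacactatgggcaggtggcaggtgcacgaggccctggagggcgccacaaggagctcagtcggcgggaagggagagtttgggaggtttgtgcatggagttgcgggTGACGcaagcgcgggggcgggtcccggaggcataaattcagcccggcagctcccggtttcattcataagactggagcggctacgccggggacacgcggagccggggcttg
Junb: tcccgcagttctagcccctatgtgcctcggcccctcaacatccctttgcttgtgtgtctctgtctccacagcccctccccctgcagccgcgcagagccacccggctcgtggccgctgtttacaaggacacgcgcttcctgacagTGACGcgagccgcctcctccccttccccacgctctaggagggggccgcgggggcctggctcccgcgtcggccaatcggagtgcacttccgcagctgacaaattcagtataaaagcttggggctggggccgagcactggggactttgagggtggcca
Dusp5: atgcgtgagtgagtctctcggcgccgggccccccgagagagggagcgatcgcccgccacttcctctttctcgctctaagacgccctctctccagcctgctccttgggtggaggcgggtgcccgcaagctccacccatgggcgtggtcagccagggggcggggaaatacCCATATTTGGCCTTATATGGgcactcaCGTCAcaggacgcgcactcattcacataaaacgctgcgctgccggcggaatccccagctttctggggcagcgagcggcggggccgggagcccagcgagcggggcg
The Fosb and Junb windows each held 1 CRE core and 0 CArG boxes, while the Dusp5 window held 1 CRE core and 2 CArG boxes that adjoin, which makes its longer run of capitals.

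Windows were matched for 60 of the 76 members. A CRE core was found in 31 of them (51.7%), against 23% of 27025 genes, and a CArG box in 5 (8.33%), against 1.81%. The 5 were Dusp5, Egr2, Klf8, Srf and Zfp36. The AP-1 site itself, TGACTCA on either strand, was in 1 window set (1.67%), that of Dusp13, against 5.95% of all genes. Member windows were richer in G and C, with a median of 63% against 52.7% over all windows, and the core itself contains the pair CG. Some genes have several windows, and a match in any of them was counted. Members with a core had a median difference of 0.07 (20 above 0 and 11 below), and the 29 matched members without one had -0.03 (14 above and 15 below). Without normal replicate 3 these medians were 0.021 and -0.068. Without diabetic replicate 2 they were 0.048 (16 above and 15 below) and -0.019 (11 above and 18 below). The excess above 0 among members with a core therefore rests on that array. A match describes the letters in the window and not a bound site.

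The other Fos genes showed no difference beyond their spread. Fos itself (10397346), the founding subunit, was at 2.15, 2.55 and 2.11 in diabetic samples, against 1.90, 2.33 and 2.50 in normal samples (difference 0.03, SE 0.17). Diabetic values all lay inside the normal range except that of replicate 2. Fosl2 (10520862), which encodes the Fra-2 subunit, was at 2.09, 2.26 and 2.34 in diabetic samples, against 2.32, 2.98 and 2.37 in normal samples (difference -0.33, SE 0.17). Normal replicate 2 stands high, and without it the Fosl2 difference was -0.12. Fosl1 (10460585), for the Fra-1 subunit of the wound edge, was at 1.91, 2.04 and 1.68 in diabetic samples, against 1.78, 1.76 and 2.09 in normal samples. Only diabetic replicate 2 exceeded its limit, and the difference of Fosl1 was -0.00040 (SE 0.14).

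Of the remaining Jun genes, Jun (10514466) was at 2.27, 2.46 and 2.04 in diabetic samples, against 2.23, 2.42 and 2.39 in normal samples (difference -0.09, SE 0.14). Jund (10572456), the constitutively expressed Jun subunit, was at 2.83, 2.59 and 3.38 in diabetic samples, against 2.77, 3.27 and 2.51 in normal samples (difference 0.08, SE 0.23). Both sets of groups overlapped, and single arrays spread more widely than the groups did. Over the 7 Fos and Jun genes 4 were above the limit on all arrays and 3 on some. Their median difference was -0.00040, with 3 above 0 and 4 below, and after median centring these counts were 4 and 3. With 1 array left out the median ran from -0.14 (without normal replicate 1, 2 above and 5 below) to 0.018 (without diabetic replicate 3), and it was -0.11 without diabetic replicate 2.

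**Figure D3:**
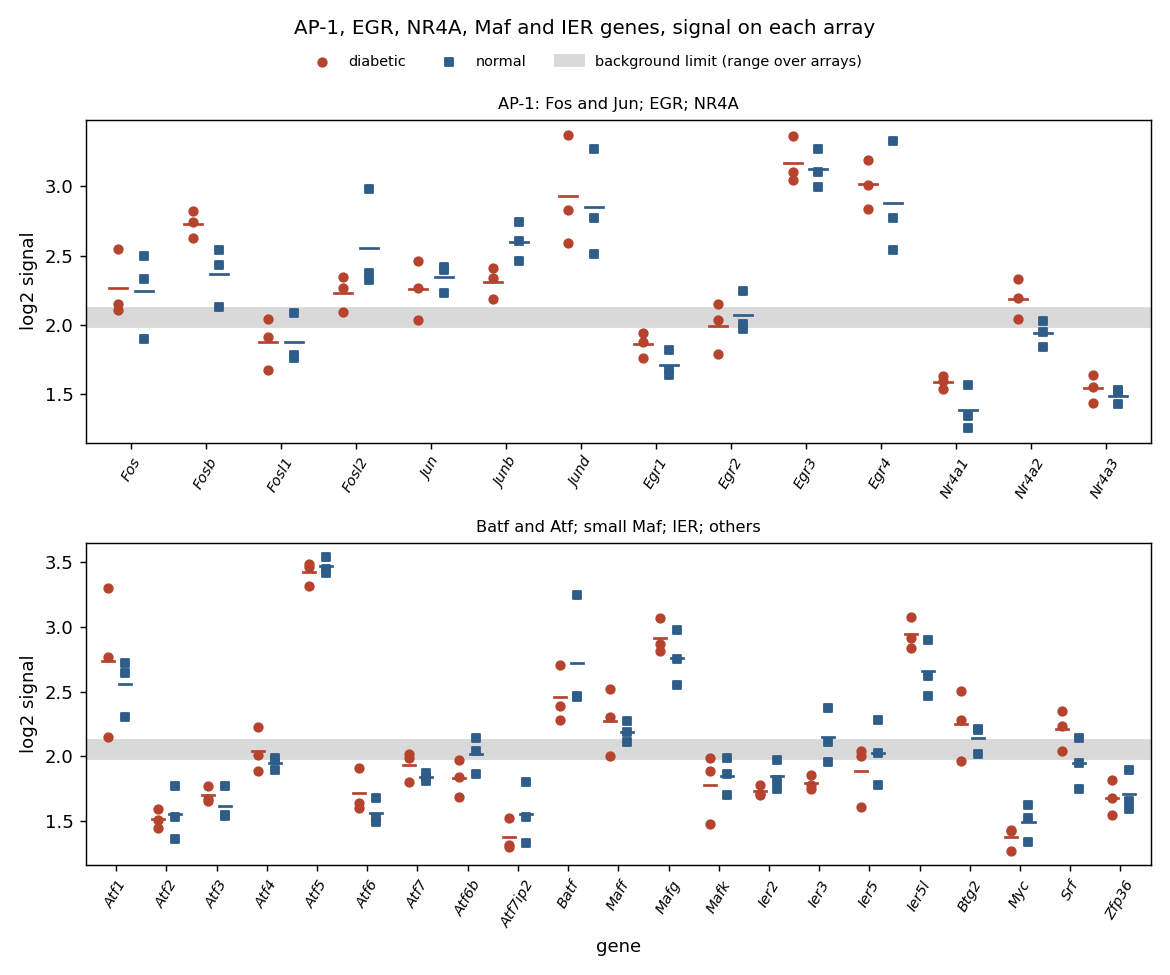
Log2 signal (vertical axis) of the AP-1, EGR and NR4A genes (upper panel) and of the Batf, Atf, small Maf, IER and other immediate-early genes (lower panel) on each array. Red circles are diabetic arrays, blue squares normal arrays, short lines group means, and the grey band spans the background limits of the 6 arrays (1.98 to 2.12); Fosb is higher and Junb lower on all diabetic arrays, as are Nr4a2 (higher) and Ier3 (lower), and the other pairs overlap.

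Batf and the ATF genes encode further basic leucine zipper factors, among them Atf3, a stress-induced repressor, Atf4, the effector of the integrated stress response, and Atf6, a sensor of endoplasmic reticulum stress. None of these 10 members had an unadjusted p under 0.05. Differences above and below 0 numbered 5 each, from -0.27 to 0.18, with a median of 0.02. That median was -0.041 without diabetic replicate 3, -0.033 with probe sets averaged and 0.083 without normal replicate 3. Atf3 (10361091) was at 1.65, 1.67 and 1.77 in diabetic samples, against 1.55, 1.54 and 1.77 in normal samples, under the limit throughout. 3 ATF-type genes were above it on all arrays: Atf1, Atf5 and Batf.

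Atf1 (10426875), a close relative of CREB, was at 2.15, 2.77 and 3.30 in diabetic samples, against 2.64, 2.31 and 2.72 in normal samples. The diabetic values enclose the normal ones, and the difference of 0.18 (SE 0.24) turned to -0.10 when diabetic replicate 3 was left out and was 0.48 when diabetic replicate 1 was. Batf (10397359), best known from lymphocytes, was at 2.28, 2.70 and 2.39 in diabetic samples, against 2.46, 2.47 and 3.25 in normal samples (difference -0.27, SE 0.21), and the difference was -0.0037 without normal replicate 3. Atf5 (10562905) was at 3.46, 3.49 and 3.32 in diabetic samples, against 3.45, 3.54 and 3.42 in normal samples, and the values of its groups interleave. The other 6 ATF members, Atf2, Atf4, Atf6, Atf6b, Atf7 and Atf7ip2, differed by -0.18 to 0.15. Atf7 had 2 probe sets, the brighter differing by 0.10 and the other by -0.15, so the sign for this gene depends on the probe set.

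The small Maf genes encode leucine zipper proteins without an activation domain that pair with AP-1 and NRF2. Mafg (10393881) was above the limit on every array, at 2.81, 3.07 and 2.87 in diabetic samples, against 2.98, 2.75 and 2.55 in normal samples. Its groups overlapped, and its difference was 0.16 (SE 0.15). Maff and Mafk differed by 0.08 and -0.07, and both signs rest on 1 array: Maff was at -0.041 without diabetic replicate 2 and Mafk at 0.083 without diabetic replicate 3.

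EGR genes encode zinc finger factors that read out MAP kinase activity. Egr1 (10454782), which is induced at wound edges, was at 1.87, 1.94 and 1.76 in diabetic samples, against 1.67, 1.81 and 1.64 in normal samples. Every value was under the limit and the groups overlapped, with a difference of 0.15 (SE 0.11). Egr2 (10363735), known from myelinating Schwann cells, was at 1.79, 2.15 and 2.04 in diabetic samples, against 1.97, 2.25 and 2.00 in normal samples, above the limit on 1 array of each group. Egr3 (10416251) was at 3.04, 3.11 and 3.36 in diabetic samples, against 3.00, 3.27 and 3.11 in normal samples. Egr4 (10545859) was at 3.01, 2.84 and 3.19 in diabetic samples, against 2.77, 3.33 and 2.54 in normal samples. Egr3 and Egr4 exceeded the limit on all arrays, and their differences were 0.05 (SE 0.15) and 0.13 (SE 0.20). Of the 4 genes 3 were above 0 and 1, Egr2 at -0.08 (SE 0.14), was below, but the split was 2 and 2 without diabetic replicate 3, normal replicate 1 or normal replicate 3, and all 4 were above 0 without diabetic replicate 1 or normal replicate 2.

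NR4A genes encode orphan nuclear receptors that are induced like the EGR genes. Differences were above 0 in all 3, under both alternative scalings as well, and none had an unadjusted p under 0.05. Nr4a1 (10427035) was at 1.53, 1.63 and 1.60 in diabetic samples, against 1.25, 1.34 and 1.56 in normal samples, under the limit throughout, a difference of 0.20 (SE 0.11). Nr4a2, picked out after its values were seen, was at 2.19, 2.33 and 2.04 in diabetic samples, against 2.03, 1.94 and 1.84 in normal samples. The Nr4a2 groups did not overlap, 2 diabetic and 0 normal arrays were above the limit, and the difference was 0.25 (SE 0.12) with an adjusted p of 0.893 in limma. Nr4a3, under the limit on all arrays, differed by 0.05.

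IER genes are a loose set named for their early induction. Ier3, which encodes a regulator of survival and NF-kappaB signalling, had the lowest difference among them. Its values (10444890) were 1.75, 1.77 and 1.86 in diabetic samples, against 1.95, 2.11 and 2.38 in normal samples. All diabetic values were lower than all normal values, but only normal replicate 3 exceeded its limit. The difference was -0.35 (SE 0.13), with an unadjusted p of 0.0198 and an adjusted p of 0.835 in limma. Without normal replicate 3 it was -0.24, and 3 of 6 fits with 1 array left out kept an unadjusted p under 0.05.

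Ier2 (10580183) was at 1.71, 1.78 and 1.70 in diabetic samples, against 1.75, 1.81 and 1.97 in normal samples, under the limit throughout, a difference of -0.11 (SE 0.11). Ier5l (10481491) was above the limit on every array, at 3.08, 2.92 and 2.84 in diabetic samples, against 2.46, 2.90 and 2.62 in normal samples. Its difference was 0.28 (SE 0.15), and diabetic replicate 3 lay under normal replicate 2. The remaining member, Ier5, differed by -0.14.

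Among the remaining immediate-early genes, Srf encodes the serum response factor that binds the CArG box. Srf (10451363) was at 2.35, 2.23 and 2.04 in diabetic samples, against 1.95, 2.14 and 1.74 in normal samples (difference 0.26, SE 0.14), with groups that overlap. Myc (10424400), a driver of growth and of exit from the epidermal stem cell state, was at 1.43, 1.42 and 1.27 in diabetic samples, against 1.34, 1.62 and 1.52 in normal samples, all under the limit. The difference for Myc was -0.12 (SE 0.11). Zfp36 (10561453), which encodes tristetraprolin, was at 1.54, 1.68 and 1.82 in diabetic samples, against 1.89, 1.65 and 1.59 in normal samples (difference -0.03, SE 0.12). It too was under the limit throughout. Btg2 (10357875), an antiproliferative gene, was at 2.28, 2.51 and 1.96 in diabetic samples, against 2.02, 2.20 and 2.21 in normal samples (difference 0.11, SE 0.15). None of the 4 separated the groups, and their split of 2 above 0 and 2 below became 1 and 3 without diabetic replicate 2 and 3 and 1 without diabetic replicate 1 or normal replicate 1.

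The DUSP genes that encode MAP kinase phosphatases number 10 here, and 6 of them had a difference below 0, with a median of -0.17 (7 below 0 after quantile normalization). The median stayed below 0 with 1 array left out, but was -0.091 without diabetic replicate 1 (8 below 0) and -0.11 without normal replicate 1 (7 below 0). Dusp4, which encodes a nuclear phosphatase for ERK, JNK and p38, had the smallest unadjusted p of all members. It was at 1.25, 1.60 and 1.38 in diabetic samples, against 2.10, 1.85 and 1.65 in normal samples (10571312). The groups did not overlap, yet all 6 values were under the background limit of their array. The difference was -0.46 (SE 0.14), with an unadjusted p of 0.00624 and an adjusted p of 0.780 in limma. Leaving out 1 array at a time kept the unadjusted p under 0.05 in 6 of 6 fits, with differences from -0.56 to -0.34.

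Feedback phosphatases for ERK showed no such separation. Dusp6 (10366043), the cytoplasmic ERK phosphatase, was at 2.07, 2.07 and 1.95 in diabetic samples, against 1.82, 2.02 and 2.21 in normal samples (difference 0.02, SE 0.13). Dusp5 (10463945), the nuclear ERK phosphatase whose window is shown above, was the 1 MAP kinase phosphatase gene above the limit on all arrays. Its values were 2.83, 2.94 and 2.74 in diabetic samples, against 3.01, 2.66 and 2.77 in normal samples (difference 0.03, SE 0.14). Dusp1 (10449284), an early-induced phosphatase for p38 and JNK, was at 1.96, 2.22 and 1.99 in diabetic samples, against 2.28, 2.01 and 2.14 in normal samples (difference -0.09, SE 0.13). The other 6, Dusp2, Dusp7, Dusp8, Dusp9, Dusp10 and Dusp16, differed by -0.35 (Dusp7) to 0.16 (Dusp2), and their groups overlapped. Dusp8 had 2 probe sets, differing by -0.25 and, for the dimmer, -0.03.

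**Figure D4:**
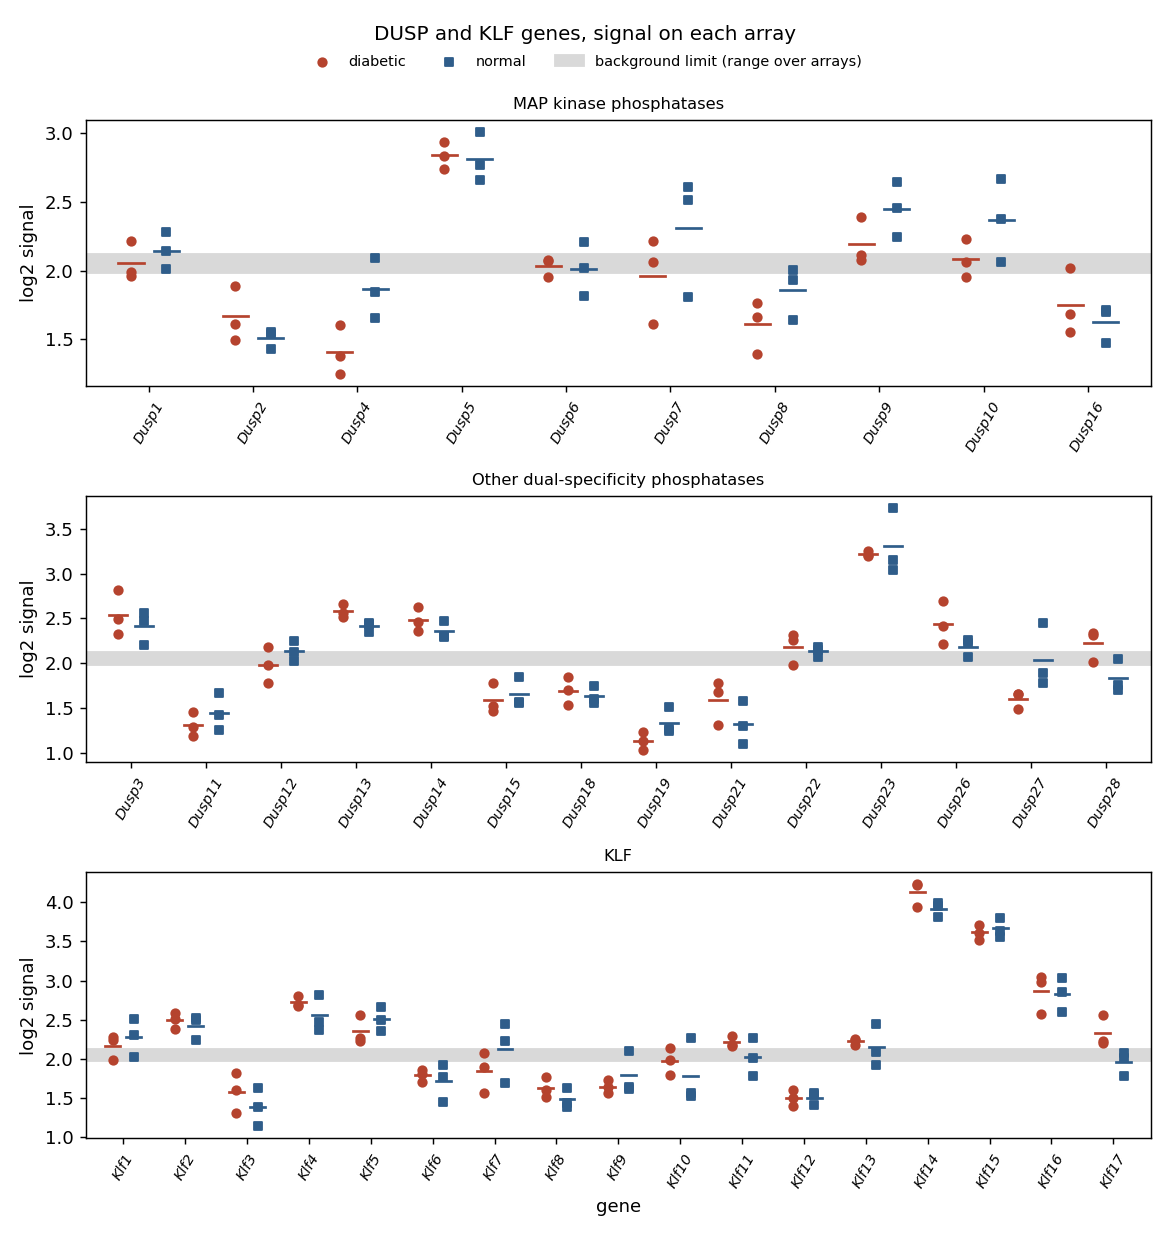
Log2 signal (vertical axis) of the MAP kinase phosphatase genes (top), the other dual-specificity phosphatase genes (middle) and the KLF genes (bottom) on each array, with red circles for diabetic arrays, blue squares for normal arrays, short lines for group means and a grey band for the range of background limits. Dusp4, Dusp19 and Dusp27 are lower and Dusp13 and Klf17 higher on all diabetic arrays, and only normal replicate 1 lifts Dusp27 above the band.

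The other 14 DUSP genes encode smaller or atypical phosphatases, some acting on RNA or on no known substrate, and 8 of them were above 0 and 6 below, with a median of 0.05. Without diabetic replicate 2 this turned to 6 above and 8 below, with a median of -0.010. Leaving out diabetic replicate 3 gave 0.0037, and leaving out diabetic replicate 1 gave 0.14. Dusp28, for an atypical phosphatase, was at 2.01, 2.34 and 2.31 in diabetic samples, against 1.70, 1.76 and 2.04 in normal samples (10348666). All 3 diabetic and 0 normal arrays exceeded their limits, although diabetic replicate 1 lay under normal replicate 3. Diabetic replicate 1 also lay under the limits of the normal arrays, 2.11 to 2.12. The difference was 0.39 (SE 0.14), with an unadjusted p of 0.0166 and an adjusted p of 0.830 in limma. It ranged from 0.32 to 0.49 with 1 array left out, and the unadjusted p stayed under 0.05 in 2 of those 6 fits.

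Dusp27 encodes a pseudophosphatase known from muscle. Its values (10359793) were 1.49, 1.66 and 1.65 in diabetic samples, against 2.45, 1.89 and 1.78 in normal samples. All diabetic values were lower, with normal replicate 1 the sole array above its limit. The difference was -0.44 (SE 0.16), with an unadjusted p of 0.0195 and an adjusted p of 0.835 in limma, and it was -0.23 without normal replicate 1. The unadjusted p stayed under 0.05 in 4 of 6 fits that left out 1 array. The 12 skeletal muscle markers had 10 differences above 0 and 2 below, with a median of 0.11. Whether muscle RNA had a part in the Dusp27 difference was not tested.

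Of these genes 4 exceeded the limit on all arrays, namely Dusp3, Dusp13, Dusp14 and Dusp23. Dusp13 (10418016) was at 2.52, 2.57 and 2.66 in diabetic samples, against 2.44, 2.45 and 2.35 in normal samples, without overlap, a difference of 0.17 (SE 0.12). Dusp3 (10391513), for the small ERK and JNK phosphatase VHR, was at 2.49, 2.32 and 2.81 in diabetic samples, against 2.47, 2.20 and 2.57 in normal samples (difference 0.13, SE 0.16). Dusp14 (10389238) was at 2.47, 2.62 and 2.35 in diabetic samples, against 2.47, 2.29 and 2.31 in normal samples (difference 0.12, SE 0.13). Dusp3 and Dusp14 overlapped between groups, as did Dusp23. Dusp23 (10360321) was at 3.20, 3.25 and 3.19 in diabetic samples, against 3.73, 3.04 and 3.15 in normal samples, and its difference of -0.09 (SE 0.18) was 0.12 without normal replicate 1. The other 8, Dusp11, Dusp12, Dusp15, Dusp18, Dusp19, Dusp21, Dusp22 and Dusp26, differed by -0.21 to 0.27. Of them Dusp19 (-0.21) did not overlap, and it was under the limit on all arrays.

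KLF genes encode zinc finger factors of GC-rich promoters, and 11 of 17 had a difference above 0, with a median of 0.07 (12 after median centring). Without normal replicate 3 it was 9 above and 8 below with a median of 0.015, so the excess above 0 rests on that array. Klf17, known from germ cells and early embryos, was at 2.56, 2.21 and 2.23 in diabetic samples, against 2.07, 2.01 and 1.78 in normal samples (10515495). The groups did not overlap, and 3 diabetic and 0 normal arrays were above their limits. The difference was 0.38 (SE 0.14), with an unadjusted p of 0.0198 and an adjusted p of 0.835 in limma. It was 0.26 without diabetic replicate 1 and 0.29 without normal replicate 3, where the unadjusted p was above 0.05, unlike in the other 4 fits with 1 array left out.

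The KLF genes best known from epidermis stayed within their spread. Klf4 (10513008), which is required for the skin barrier, was at 2.70, 2.81 and 2.68 in diabetic samples, against 2.82, 2.37 and 2.48 in normal samples (difference 0.17, SE 0.15). Klf5 (10416777), a factor of proliferating basal epithelium, was at 2.56, 2.23 and 2.27 in diabetic samples, against 2.66, 2.50 and 2.36 in normal samples (difference -0.15, SE 0.14). Both genes exceeded the limit on every array, and in both the groups overlapped. Klf6 (10403352), induced by injury in several tissues, was at 1.81, 1.71 and 1.86 in diabetic samples, against 1.46, 1.93 and 1.77 in normal samples, under the limit throughout. Klf2 (10572800), known as a flow-responsive factor of endothelium, was at 2.58, 2.51 and 2.39 in diabetic samples, against 2.49, 2.53 and 2.24 in normal samples (difference 0.07, SE 0.13).

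A pair of metabolic KLF genes and Klf16 were likewise above the limit on all arrays. Klf14 (10543772), a regulator of adipose gene expression, was at 4.23, 4.21 and 3.94 in diabetic samples, against 3.81, 3.99 and 3.95 in normal samples (difference 0.21, SE 0.16). Klf15 (10540028), a factor in gluconeogenesis and amino acid use, was at 3.61, 3.71 and 3.52 in diabetic samples, against 3.80, 3.56 and 3.64 in normal samples (difference -0.05, SE 0.15). Klf16 (10370911) was at 2.58, 2.98 and 3.05 in diabetic samples, against 3.03, 2.86 and 2.60 in normal samples (difference 0.04, SE 0.17). All 3 overlapped between groups. The other 9 KLF genes, Klf1, Klf3, Klf7, Klf8, Klf9, Klf10, Klf11, Klf12 and Klf13, differed by -0.28 (Klf7) to 0.19 (Klf11).

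Genes around these families were taken from a list of 69, of which 60 were measured. None passed the adjusted threshold, and 26 had a difference above 0 and 34 below, with a median of -0.02. An unadjusted p under 0.05 was reached by Btg1, Ep300, Il1a and Cxcl2, and these 4 are a count near the background of 5.56% of all genes and so no result about the list, and it ran from 2 to 6 with 1 array left out. That p was kept in 3 of 6 such fits for Btg1, Ep300 and Il1a each and in 2 of 6 for Cxcl2. The MAP kinase cascade contributed 15 genes, 9 above 0 and 6 below, with 0 at that p. Of 12 activating factors and kinases 2 were above 0 and 10 below, though 5 and 7 without diabetic replicate 3 or normal replicate 2. Ep300, the acetyltransferase recruited by CREB and AP-1, was at 1.81, 1.85 and 1.83 in diabetic samples, against 2.15, 1.98 and 2.30 in normal samples (difference -0.31, SE 0.12, adjusted p 0.839 in limma). It exceeded the limit on 0 diabetic and 2 normal arrays. Elk1, a ternary complex partner of serum response factor, was singled out after its values were seen. It exceeded the limit on all 3 diabetic arrays, at 2.05, 2.10 and 2.12, and on 0 normal ones. Diabetic replicates 1 and 2 nevertheless lay under the limits of the normal arrays, 2.11 to 2.12, so this count depends on the unequal limits. The Elk1 difference was 0.23 (SE 0.12), with an unadjusted p of 0.0745 in limma.

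Btg1, the antiproliferative relative of Btg2, had the largest positive difference of the 60. It was at 3.12, 3.36 and 2.77 in diabetic samples, against 2.17, 2.97 and 2.09 in normal samples, with a difference of 0.67 (SE 0.23, adjusted p 0.780 in limma). Diabetic replicate 3 lay under normal replicate 2, so the groups overlapped. Of 20 genes taken as AP-1 targets, 7 were above 0 and 13 below, with a median of -0.15. With 1 array left out that median ran from -0.15 (without normal replicate 3) to -0.054 (without normal replicate 2). It was between -0.096 and -0.085 in the other 4 fits. Only 1 of the 20 exceeded the limit on all arrays, and 10 were under it on every array. The 3 targets above the limit on at least 3 arrays had 2 differences above 0 and 1 below, with a median of 0.047. Il1a and Cxcl2 were the 2 AP-1 targets with an unadjusted p under 0.05, with differences of opposite sign, 0.33 (SE 0.14) and -0.71 (SE 0.32). The Il1a difference was 0.17 without diabetic replicate 1, the only array above its limit for that gene. Cxcl2, a neutrophil chemokine gene, was at 1.72, 1.54 and 1.79 in diabetic samples, against 1.97, 3.39 and 1.80 in normal samples. Normal replicate 2 was far above the rest and the only array above its limit, and the Cxcl2 difference was -0.20 without it. Other bZIP partners, 9 genes, had 5 above 0 and 4 below, which was 3 and 6 after quantile normalization or without diabetic replicate 2. The 4 mRNA decay genes, Btg1 among them, had 3 above 0 and 1 below.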

How the data were processed

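The authors deposited 1 log2 signal for each of 35556 probe sets and 6 arrays, with base 2 read from the range of the values. Partek appears without a version in the submitters' processing notes, and how signals were corrected for background, scaled and summarized is not stated there. Probe sets were named from the platform annotation: 21789 had 1 symbol, 1621 had several and were left out, and 12146 stay unnamed here. A GRCm38.p6 gene table, matched on gene ID, gave the current symbol of 21698.

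All 19938 genes were fitted on group alone in R 4.3.3, using lmFit and trended eBayes of limma 3.58.1, with no filter on dim genes and Benjamini-Hochberg adjustment. The fit was tested on simulated data. Values on every array are given for members above the background limit on all arrays, members with an unadjusted p under 0.05 and 26 fixed genes, 42 in all, and for members picked out after their values were seen. The other members are given by range. Members and lists were chosen with earlier results of these data known. Alternatives covered scaling, variance model, array weights, filters, the choice of probe set, a block on replicate number, thresholds, leaving out each array and the background percentile. The number of arrays limits the precision. Members of one family can share near-identical stretches, and cross-hybridization of probes was not tested.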

Additional observations from a re-analysis of the deposited data

How the results depend on the processing

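The count of members past the adjusted threshold was 0 in limma under every alternative run, with 6 members at an unadjusted p under 0.05 in the fit as reported. That second count was 1 at an unadjusted p under 0.01 and 0 with a fold of at least 1.5 added, both stricter by construction. With 1 array left out it ranged from 4 to 12, and the 12 came without normal replicate 2, when 6.98% of all genes passed. The members' median difference ranged from -0.016 (without diabetic replicate 2) to 0.0497 (genes above the limit on at least 3 arrays). With a replicate block the unadjusted count was 8, of which 6 were the members named above, and the adjusted count 0. Same-numbered arrays deviated together with correlations of -0.018, 0.0078 and 0.014, so the numbers were not taken to pair the samples. Members above background on all arrays numbered 34 with the 90th percentile and 5 with the 99th percentile as the limit, so that count depends on where the limit is set.

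Of 358 differences of named members under alternatives other than leaving out an array, 355 kept their sign. The 3 that did not were Dusp5 (-0.014) and Klf16 (-0.0045) after quantile normalization and Fosl1 (0.0031) after median centring. With 1 array left out, 222 of 252 kept their sign. The ranges of the genes that changed sign were Atf1 -0.097 to 0.48, Atf5 -0.076 to 0.0093, Btg2 -0.022 to 0.25, Dusp23 -0.23 to 0.12, Dusp3 -0.0053 to 0.24, Dusp5 -0.049 to 0.13, Dusp6 -0.082 to 0.11, Egr2 -0.16 to 0.020, Egr3 -0.048 to 0.12, Egr4 -0.035 to 0.36, Fos -0.14 to 0.16, Fosl1 -0.083 to 0.11, Jun -0.20 to 0.018, Jund -0.14 to 0.29, Klf15 -0.10 to 0.017, Klf16 -0.077 to 0.18, Klf2 -0.017 to 0.13, Klf6 -0.053 to 0.18, Zfp36 -0.100 to 0.057; the cause was not tested. No other of the 42 members with values on every array given by rule changed sign. Of the 34 members given by range, 12 changed sign with an array left out and 2, Atf7 and Klf12, under another alternative.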

Other observations

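Single arrays took unequal shares of the extremes. Diabetic replicate 2 gave the highest of the 6 values for 18 members (23.7%, against 16.5% of all genes), and normal replicate 1 likewise for 18 (23.7%, against 16.7%). Normal replicate 3 gave the highest value for 9 members (11.8%, against 20.1%). Diabetic replicate 3 gave the lowest value for 18 members (23.7%, against 13.5%), and diabetic replicate 2 for 6 (7.89%, against 14.2%).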
